A study of Mus musculus with 4 samples.

Results

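The SoxF and hemato-endothelial transcription factors are 10 genes chosen by name: Sox7, Sox17, Sox18, Tal1, Lmo2, Lyl1, Gata2, Mef2a, Mef2c and Hhex. They stand among 21631 protein-coding genes on the autosomes and X. For each gene, every ATAC-seq peak that overlapped the gene body or the 10 kb on either side (its window, below) was collected from 4 peak lists, and peaks within 1 kb of either end of the gene were marked. ATAC-seq uses a transposase that cuts open chromatin and tags it for sequencing, so a peak marks accessible DNA. All 10 genes had a peak in at least 1 library. Their windows held 25 merged regions (peaks of different libraries joined where they overlapped or touched) out of 25263 in the genome.

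The libraries came from endothelial cells sorted by FACS from the retina of C57BL/6 mice labelled P16, with 2000 cells in each library. The Zeb1 knockdown group, titled Zeb1-CKO, and the control group had 2 libraries each, called knockdown 1 and 2 and control 1 and 2 here. The allele, the Cre driver and the timing of deletion are not given in the sources used here. No label ties a library to its own mouse, so the spread within a group may be technical. With cells sorted in bulk, fewer cells of a type with an open site and less opening per cell cannot be told apart.

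The lists differed in length: 13689 and 19886 peaks in knockdown 1 and 2, against 7608 and 13672 peaks in control 1 and 2. Control 1 was the shortest by far, while knockdown 1 and control 2 were almost equal. Read depth is unknown, and a site without a peak may be closed or may be covered too thinly to be called. Zeb1 itself had 2 and 3 window peaks in the knockdown libraries and 0 and 1 in the controls, which does not check the genotype. Among all protein-coding genes, 54.6% and 61.7% had a window peak in knockdown 1 and 2, and 35.4% and 53.9% in control 1 and 2. The counts of marker genes are to be read beside these shares. Of 12 endothelial marker genes, 12 and 12 had a window peak in the knockdown libraries, and 10 and 12 in the controls. Photoreceptor markers followed the replicate number: 5 and 14 of 14 genes in knockdown 1 and 2, and 4 and 13 in control 1 and 2. Among 12 leukocyte genes, 3 and 4 had a window peak in the knockdown libraries and 4 and 4 in the controls. Cd68 and Aif1 had one in all 4 libraries and Tyrobp in all but control 1. No library had one at 6 of the genes, among them Ptprc, Csf1r and Cd3e. Among 11 erythroid and megakaryocyte genes these numbers were 3 and 3 in the knockdown libraries and 2 and 3 in the controls. Klf1 and Itga2b had a window peak in all 4 libraries and Epb42 in all but control 1. The other 8 had none in any library, among them the globin genes Hba-a1 and Hbb-bs and Gata1. Within 1 kb of an end, no library had a peak at any erythroid and megakaryocyte gene, or at Cd68, Aif1 or Tyrobp. Leukocyte genes had an end peak at 0 and 1 in the knockdown libraries and 1 and 0 in the controls. For endothelial genes these numbers were 7 and 8, and 5 and 7. The shares of all protein-coding genes were 39.5% and 45.2%, and 22.0% and 38.5%. Pericyte genes, 10 in number, had a window peak at 2 and 5 in the knockdown libraries and at 0 and 1 in the controls. Müller glia genes (9 in number) had 4 and 4 in the knockdown libraries and 2 and 3 in the controls, and other retinal neuron genes (10) had 4 and 5 in the knockdown libraries and 3 and 5 in the controls. The part of these other cell types in the results that follow was not tested.

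These factors set up and maintain endothelial identity, and several also act at the branch point between endothelium and blood. SOX7, SOX17 and SOX18 form the SoxF group, HMG-box proteins that act redundantly in arterial, venous and lymphatic vessels. TAL1 and LYL1 are related basic helix-loop-helix proteins that bind DNA with E proteins. LMO2 bridges them to GATA factors such as GATA2, in complexes that also hold LDB1. MEF2 proteins are MADS-box factors that act downstream of shear stress and vascular growth signals, and HHEX is a homeobox repressor of early endothelium and liver.

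Across the 10 genes, the windows held 17 and 23 peaks in knockdown 1 and 2, against 8 and 16 in control 1 and 2. The means were 20 ± 4.24 peaks in the knockdown group and 12 ± 5.66 in the control group (SD, n = 2 each), a difference of 8 peaks. The 2 groups of totals did not overlap, but the lowest knockdown total was 1 peak above the highest control total. A two-sided exact permutation test over the 4 libraries gave p = 0.333, and no arrangement of 2 against 2 can go lower. Peaks covered 7790 and 10679 bases of the windows in knockdown 1 and 2, and 2502 and 5318 in control 1 and 2. The whole lists separated in the same way, covering 7079.0 and 9164.8 kb in the knockdown libraries and 3480.9 and 5669.0 kb in the controls. Per 1000 bases covered by the list, 1.10 and 1.17 lay in the member windows in knockdown 1 and 2, and 0.719 and 0.938 in control 1 and 2. These shares did not overlap either, with an exact two-sided permutation p of 0.333. Mef2c held 1696 and 1951 of the covered bases in knockdown 1 and 2, and 469 and 587 in control 1 and 2. Hhex held 1227 and 1205 in the knockdown libraries, and 265 and 273 in the controls. The separation of the shares thus leaned on the wide peaks of Mef2c and Hhex, described below, and is not a trait of all 10 genes. Knockdown 1 and 2 held 17 and 23 of the 25 regions, against backgrounds of 58.4% and 81.9% of all regions in gene windows. Control 1 and 2 held 8 and 16, against 30.6% and 58.9%. Under the stricter limit (−log10 q of 3 or more) and with 50 kb on each side, the totals of the groups overlapped. Set against the number of peaks in the list, the values of the groups overlapped. Knockdown 1 and 2 had 1.24 and 1.16 member peaks per 1000 peaks of the list, and control 1 and 2 had 1.05 and 1.17 (exact two-sided permutation test, p = 0.667). When each list was limited to its 7608 strongest peaks, the member peaks numbered 11 and 9 in the knockdown libraries and 8 and 11 in the controls.

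**Figure D1:**
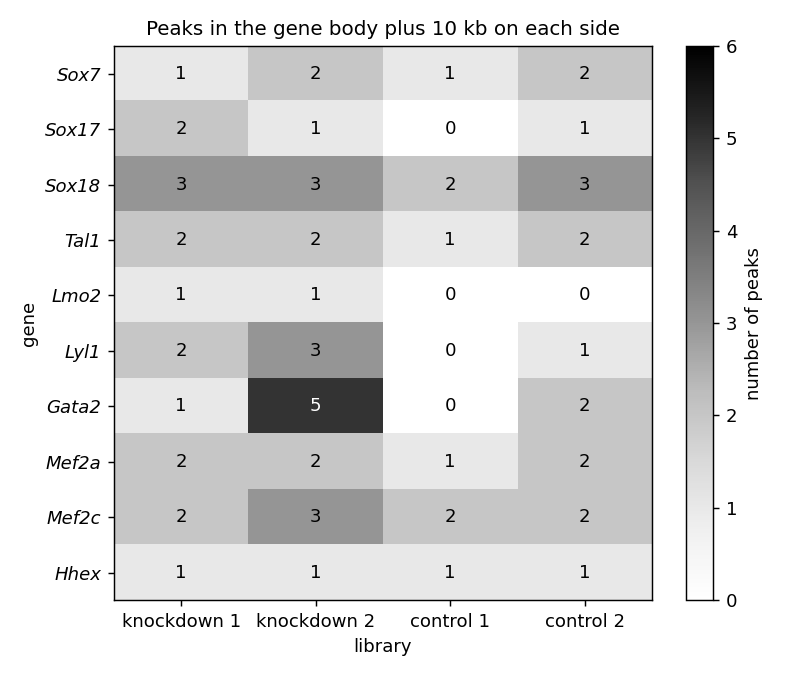
Number of peaks in the window of each gene (rows) in the 2 knockdown and the 2 control libraries (columns), as grey shade and as a number. Lmo2 has 1 peak in each knockdown library and 0 in both controls, and Gata2 ranges from 5 peaks in knockdown 2 to 0 in control 1.

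In knockdown 1 and 2, 10 and 10 members had a window peak, where 54.6% and 61.7% of all protein-coding genes did. In control 1 and 2, 6 and 9 members had one, where 35.4% and 53.9% of genes did. Over any library it was 10 of 10 members and 65.8% of genes. By pattern, 6 genes were held by all 4 libraries (Sox7, Sox18, Tal1, Mef2a, Mef2c and Hhex). Of the 14242 protein-coding genes with a window peak, 48.8% were held by all 4. Another 3 genes (Sox17, Lyl1 and Gata2) were held by every library but control 1, a pattern found in 24.7% of those genes. Lmo2 was knockdown-only, meaning held by both knockdown and neither control library, as were 6.01% of those genes. No member was control-only, and 0.288% of all such genes were. No member was held by the replicate 2 libraries alone, against 4.84%. Between the lists of like length, 1 member (Lmo2) was in knockdown 1 and not control 2, against 9.59% of genes held by either, and 0 were in control 2 and not knockdown 1, against 8.47%. The members' shares of 6, 3 and 1 in 10 lay near these background shares. By the number of window peaks, Lmo2 and Lyl1 had more in both knockdown libraries than in both controls, against 14.3% of genes in that direction. The reverse occurred at no member and at 0.414% of genes.

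The 25 regions were set beside all 20220 regions in gene windows. All 4 libraries held 7 of them (28%), against 23.6% of all window regions. Every library but control 1 held 6 (24%), against 18.5%. Knockdown-only regions numbered 2 (8.0%), 1 at Lmo2 and 1 at Lyl1, against 9.79%. Knockdown 2 alone held 5 regions (20%), against 20.9%, and knockdown 1 alone held 2, against 4.16%. Together 7 regions were in a single library, against 37.0%. Both replicate 2 libraries, and no other, held 2 regions (8.0%), against 7.89%. The remaining region, at Sox7, was missing from knockdown 1 only, a pattern of 0.4% of all window regions. No member region was control-only (0.158% of all window regions), and neither control library held a region alone (4.96% for control 1 and 7.08% for control 2). Between the lists of like length, knockdown 1 and control 2 shared 13 regions, 4 were in knockdown 1 but not control 2, and 3 were in control 2 but not knockdown 1. Among all window regions held by either of these libraries, 20.4% were in knockdown 1 but not control 2, and 21.0% the reverse.

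**Figure D2:**
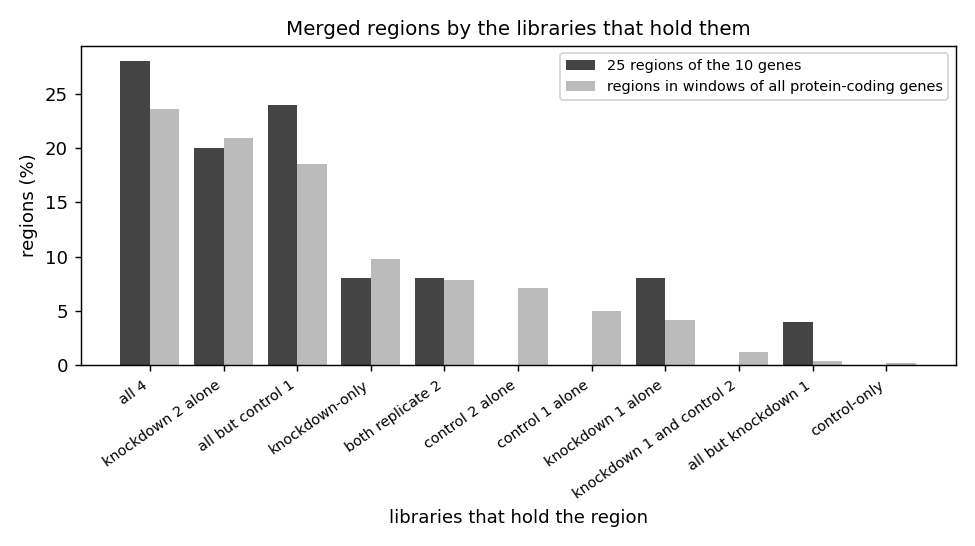
Share of merged regions (y axis, %) by the libraries that hold them (x axis), for the 25 regions at the 10 genes (dark bars) and for the 20220 regions in windows of protein-coding genes (light bars). The shares were 28% and 23.6% for regions held by all 4 libraries and 8.0% and 9.79% for knockdown-only regions.

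Within the 1 kb limit, few of these genes had a peak at an end. Sox7, Lyl1 and Hhex had a peak within 1 kb of an end in any library, 3 of 10 genes, whereas 73.7% of protein-coding genes with a window peak had one at an end, and 48.5% of all protein-coding genes did. The count depended on the limit: within 3 kb of an end, Sox17, Gata2 and Mef2a also had a peak, which made 6 of 10, against 82.4% of the genes with a window peak. Of the 25 regions, 3 were at a gene end, 10 elsewhere in a gene body and 12 in a flank. Over all protein-coding genes, 39.0% of gene and region pairs were within 1 kb of the gene's own end. In knockdown 1 and 2, 3 and 3 members were open at an end (39.5% and 45.2% of all genes), and in control 1 and 2 it was 1 and 2 members (22.0% and 38.5%). Hhex was held at an end by all 4 libraries (43.1% of 10499 genes with a gene-end peak), Sox7 by all but control 1 (25.9%) and Lyl1 by the knockdown libraries only (7.82%). No member end was control-only (0.0667%) or in the replicate 2 libraries alone (6.02%). The promoter table used here lists 10 starts for 6 of the members (Tal1, Lyl1, Gata2, Mef2a, Mef2c and Hhex). A peak touched the 300-base window around a start in at least 1 library at 5 of these 6 genes, all but Tal1, against 73.4% of genes in the table with a window peak. Mef2a and Mef2c had a start window with a peak in all 4 libraries, against 31.6% of those genes.

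**Figure D3:**
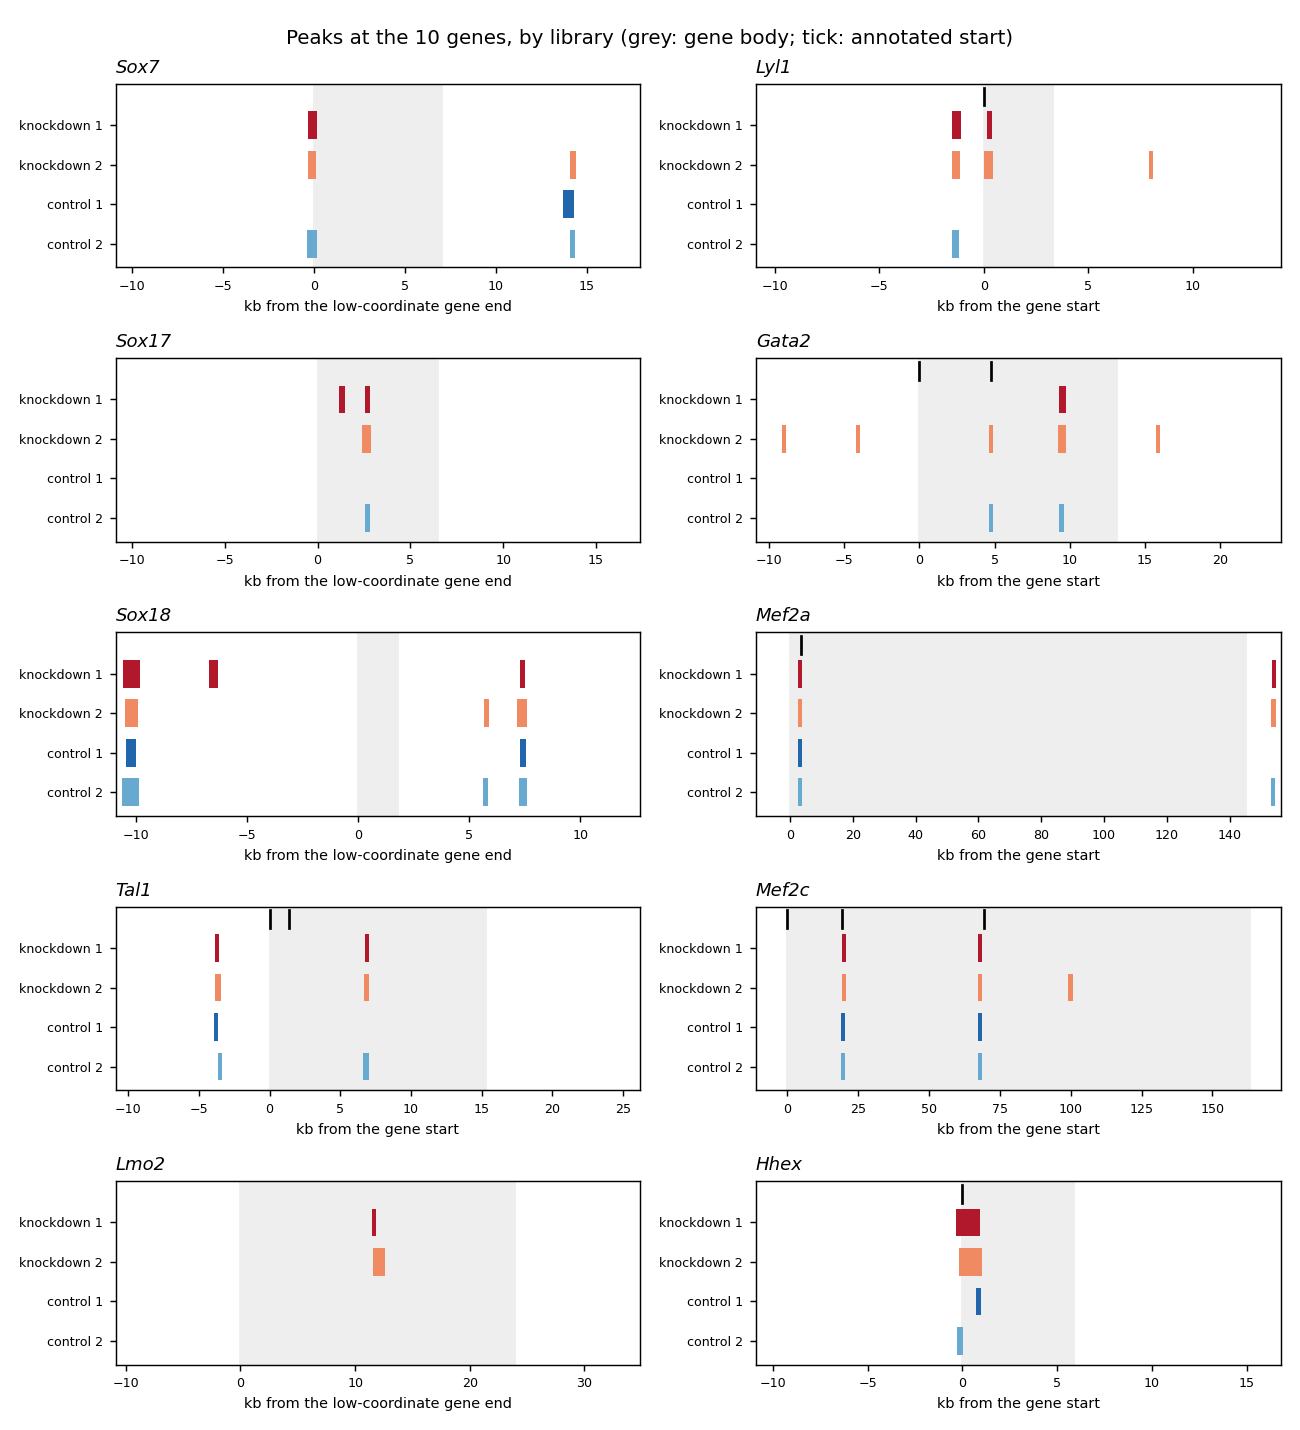
Position of every peak at the 10 genes, 1 panel per gene, with distance in kb on the x axis (from the gene's 5′ end in the gene table, or from its low-coordinate end for Sox7, Sox17, Sox18 and Lmo2) and the 4 libraries as rows. Grey is the gene body, black ticks are annotated starts where the promoter table has them, and the narrowest peaks are drawn slightly wider than they are. The Tal1 peaks lie upstream of and inside the gene but not at its starts, and each Hhex peak of the knockdown libraries overlaps both of the control peaks.

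Among the SoxF genes, Sox17 and Sox18 had no peak at an end in any library. At Sox7 (chromosome 14, 63943706 to 63950732), a region over the low-coordinate end was held by knockdown 1 (63943385 to 63943852), knockdown 2 (63943381 to 63943816) and control 2 (63943330 to 63943857). These peaks ranked at percentile 31.3 and 35.4 from the top of the knockdown lists and 52.9 from the top of the control 2 list. Control 1 had none there but held a peak 6675 bp beyond the other end, at percentile 85.6 of its list. Peaks joined with it into the same region, starting at 63957784 in knockdown 2 and at 63957774 in control 2, stood at percentile 42.6 in knockdown 2 and 59.0 in control 2. Sox7 therefore had a window peak in all 4 libraries, from a different region in control 1 than in knockdown 1.

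Sox17, which is needed in arterial endothelium, spans 4490928 to 4497426 on chromosome 1. Its main region, 4493337 to 4493823, lay inside the gene, 2409 bp from the nearer end. The peak ranked at percentile 17.5 in knockdown 1, 44.3 in knockdown 2 and 47.9 in control 2, with a fold enrichment, as the authors' peak caller gave it, of 5.90, 5.03 and 5.30. Control 1 had no peak in the window. A second region, 4492101 to 4492426, was held by knockdown 1 alone and stood near the bottom of that list, at percentile 97.2.

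Sox18, mutated in the ragged mouse with its vascular and hair defects, is a short gene (chromosome 2, 181669837 to 181671640) with 3 and 3 window peaks in the knockdown libraries and 2 and 3 in the controls. No peak lay closer than 3819 bp to the gene. The region at 181677018 to 181677445 was held by all 4 libraries, at percentiles 56.1 and 23.4 in the knockdown lists and 52.2 and 40.7 in the control lists. A neighbouring region, 181675459 to 181675757, was held by both replicate 2 libraries only, at percentile 30.4 in knockdown 2 and 49.9 in control 2. Photoreceptor markers followed the same split of libraries, and their part in this region was not tested. The region 9779 bp away on the other side was also held by all 4 libraries, but it lies within 1 kb of an end of another gene, Gm29797, and only its edge is in the window. Knockdown 1 alone held a peak at percentile 99.3 near the small nuclear RNA gene Gm25879.

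Of the bHLH, LIM and GATA factors, Tal1 was the only gene with a region in all 4 libraries. Tal1 (chromosome 4, 115056426 to 115071755) had 2 regions and neither was at a start. The upstream region, from -3.89 to -3.43 kb relative to the first start, was held by knockdown 1 (115052587 to 115052879), knockdown 2 (115052534 to 115052986), control 1 (115052565 to 115052764) and control 2 (115052796 to 115052997). The 2 control peaks did not overlap each other and were 31 bp apart, while each knockdown peak overlapped both. An enhancer upstream of Tal1 is known to act in endothelium in mouse, and whether these peaks lie on it was not tested. The second region, 6.64 to 7.02 kb after the first start, was held by every library but control 1, at percentiles 93.6 and 42.7 in the knockdown lists and 53.3 in the control 2 list. Of the 5 motifs searched in the start windows, the first Tal1 start had 1 match, TTATCT (the GATA letters AGATAA on the other strand) at -205 bases from the start. That motif was found in 11.2% of all 32851 promoters in the table.

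Lmo2, whose product links TAL1 and LYL1 to GATA proteins, had 1 region in its window (chromosome 2, gene at 103957903 to 103981878). Knockdown 1 held a peak of 233 bp there (103969440 to 103969672) and knockdown 2 a peak of 1099 bp (103969438 to 103970536), and neither control list had one. Both peaks were weak to middling, at percentile 89.8 in knockdown 1 and 53.2 in knockdown 2. The region lay 11342 bp from the nearer gene end. Under the stricter limit the knockdown 1 peak dropped out, and with the 7608 strongest peaks of each library neither knockdown peak was kept. With 50 kb on each side, control 2 also had a peak.

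Lyl1, the paralogue of Tal1, had 2 and 3 window peaks in the knockdown libraries and 0 and 1 in the controls (chromosome 8, 84701423 to 84704716). The region at its start was knockdown-only: a peak ran from 84701591 to 84701836 in knockdown 1 and from 84701438 to 84701872 in knockdown 2. The knockdown 2 peak covered the start and ranked at percentile 25.2, while the knockdown 1 peak began 134 bp after the start and ranked at percentile 83.4. With a −log10 q of at least 3, or with the 7608 strongest peaks of each library, only knockdown 2 kept it. A stronger region, 84699890 to 84700361, lay 1062 bp from Lyl1, just outside the 1 kb limit, and within 1 kb of an end of Trmt1, a tRNA methyltransferase gene. It was held by knockdown 1 and 2, at percentiles 23.2 and 14.4, and by control 2, at percentile 43.2. With gene ends set at 3 kb, Lyl1 was thus held by control 2 as well and was no longer knockdown-only. Knockdown 2 alone held a further peak, which lies in the neighbouring gene Nfix. The start window is shown because it is the single knockdown-only gene end among the 10. Capitals mark the bases under the peak of every library that had a peak on the window, here knockdown 2 alone, 69 bases. The sequence is RefSeq's, GRCm38.p6, chr8:84701207-84701506, plus strand.

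Lyl1 start: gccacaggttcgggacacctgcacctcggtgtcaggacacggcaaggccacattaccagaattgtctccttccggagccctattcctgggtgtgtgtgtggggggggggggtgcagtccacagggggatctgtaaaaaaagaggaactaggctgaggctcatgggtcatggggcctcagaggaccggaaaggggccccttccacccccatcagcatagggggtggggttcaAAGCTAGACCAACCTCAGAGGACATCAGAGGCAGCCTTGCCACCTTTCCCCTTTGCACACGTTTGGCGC

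The E2-box letters CACCTG, which ZEB proteins are known to bind, occurred once in this window, at -235 bases from the start and outside the capitals. They were found on either strand in 20.2% of all promoters in the table and in 1 of the 10 member start windows. The ETS letters CGGAAG, on the other strand (CTTCCG), were at -182 bases, also outside the capitals. A match is a description of letters, not of binding.

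Gata2, a zinc-finger factor of endothelium and blood progenitors, had the widest range, 1 and 5 window peaks in knockdown 1 and 2 and 0 and 2 in control 1 and 2 (chromosome 6, 88193891 to 88207032). In 3 regions the peak was in knockdown 2 alone, each 200 bp wide and at percentiles 92.1, 56.9 and 90.5. Between the lists of like length the order was the other way, 1 peak in knockdown 1 and 2 in control 2. The most widely held region, 88203104 to 88203669, lay 9.21 to 9.78 kb after the first start and was found in knockdown 1, knockdown 2 and control 2, at percentiles 42.3, 51.6 and 86.9. An enhancer inside the gene, downstream of the first start, is known in mouse to be needed for blood formation from endothelium, and whether these peaks lie on it was not tested. No library had a peak within 4023 bp of the first start.

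At the second Gata2 start, both replicate 2 libraries had a peak, 88198546 to 88198773 in knockdown 2 and 88198534 to 88198775 in control 2, and both replicate 1 libraries had none. The region also lies within 1 kb of an end of another gene, Gm38708. Photoreceptor markers followed the same split, and their part in this region was not tested. The start window is shown because its peak followed the replicate number rather than the group. Capitals mark the 168 bases under both peaks (RefSeq, GRCm38.p6, chr6:88198414-88198713, plus strand).

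Gata2 second start: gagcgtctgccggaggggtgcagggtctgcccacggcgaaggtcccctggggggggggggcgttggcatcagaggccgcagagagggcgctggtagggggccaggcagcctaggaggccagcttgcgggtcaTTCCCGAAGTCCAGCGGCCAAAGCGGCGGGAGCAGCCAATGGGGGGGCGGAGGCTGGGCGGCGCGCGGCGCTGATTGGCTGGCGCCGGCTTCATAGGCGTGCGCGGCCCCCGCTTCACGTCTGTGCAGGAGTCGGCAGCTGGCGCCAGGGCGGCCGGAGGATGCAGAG

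This window had 73.7% G and C and 29 CpG, against a median of 52.7% and 7 CpG over all promoters in the table. The E-box letters CAGCTG, which read the same on both strands, lay under both peaks, 17 bases after the start. They were found in 16.3% of all promoters.

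Both MEF2 genes had window peaks in all 4 libraries. Mef2a (chromosome 7, 67231163 to 67376456, minus strand) had the best-ranked peak of the 10 genes in both knockdown lists and in control 1, at percentiles 9.4 and 8.6 in the knockdown lists and 25.8 in the control 1 list. In control 2 this peak was at percentile 33.0. It ran for 798 and 826 bp in the knockdown libraries and for 660 and 811 bp in the controls, so the groups overlapped. The peaks covered 256 and 300 of the 300 bases around the annotated start in the knockdown libraries, and 240 and 300 in the controls. The control 1 peak ended 11 bp short of the start itself. That start lies inside the gene as the gene table gives it, and the region was 2806 bp from the nearer end, so it counted as a gene-body peak. The second Mef2a region, held by all but control 1, lay 8447 bp from the gene and within 1 kb of ends of Lysmd4 and 1700112J16Rik. The Mef2a start is shown as the start most fully covered in all 4 libraries. Capitals mark the 240 bases under all 4 peaks (RefSeq, GRCm38.p6, chr7:67372809-67373108, minus strand).

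Mef2a start: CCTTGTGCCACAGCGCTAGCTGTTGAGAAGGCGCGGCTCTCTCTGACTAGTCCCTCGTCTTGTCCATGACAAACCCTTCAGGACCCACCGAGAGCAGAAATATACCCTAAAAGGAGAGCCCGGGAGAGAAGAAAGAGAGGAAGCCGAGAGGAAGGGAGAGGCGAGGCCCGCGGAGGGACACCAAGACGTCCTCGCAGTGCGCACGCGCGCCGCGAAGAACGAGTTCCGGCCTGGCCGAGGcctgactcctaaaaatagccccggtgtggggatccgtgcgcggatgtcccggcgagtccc

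Mef2c, which acts in endothelium, heart and neurons, had 2 and 3 window peaks in the knockdown libraries and 2 and 2 in the controls (chromosome 13, 83504017 to 83667079). Its first start had no peak within 19508 bp in any library. Both regions held by all 4 libraries lay near the other starts, 1 over the second start and 1 that was 1183 bp from the third. At the second start the peaks were 1215 and 1267 bp wide in the knockdown libraries and 269 and 295 bp wide in the controls. They ran from 83523586 to 83524800 and from 83523542 to 83524808 in the knockdown libraries, and from 83523647 to 83523915 and from 83523635 to 83523929 in the controls. All 4 peaks thus covered the start, and the knockdown peaks extended further into the gene. Near the third start the widths were 481 and 368 bp in the knockdown libraries and 200 and 292 bp in the controls, at percentiles 39.7 and 30.8 in the knockdown lists and 97.1 and 58.2 in the control lists. Another region, inside the gene, was held by knockdown 2 alone at percentile 95.5. The second start is shown for the size of the difference in peak width between the groups. Capitals mark the 59 bases under all 4 peaks (RefSeq, GRCm38.p6, chr13:83523406-83523705, plus strand).

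Mef2c second start: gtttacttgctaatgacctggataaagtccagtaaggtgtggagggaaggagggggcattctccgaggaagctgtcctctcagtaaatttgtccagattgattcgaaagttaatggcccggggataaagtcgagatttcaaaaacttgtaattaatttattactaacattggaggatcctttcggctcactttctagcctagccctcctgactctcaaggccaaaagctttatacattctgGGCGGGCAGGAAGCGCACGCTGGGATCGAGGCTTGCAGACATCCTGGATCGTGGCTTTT

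Hhex (chromosome 19, 37434841 to 37440731) had 1 region in each library's list, over its start. The peaks ran from 37434532 to 37435758 in knockdown 1 and from 37434676 to 37435880 in knockdown 2. In control 1 the peak ran from 37435557 to 37435821 and in control 2 from 37434584 to 37434856. The widths were 1227 and 1205 bp in the knockdown libraries and 265 and 273 bp in the controls. The control peaks did not overlap: control 2 covered the start, control 1 began 716 bp after it, and 700 bp lay between them. Each knockdown peak touched both, which is why they count as 1 region. The percentiles were 53.9 and 49.2 in the knockdown lists and 84.2 and 31.4 in the control lists. The Hhex start is shown beside Mef2c as the other wide region. Capitals mark the 181 bases under the peaks of knockdown 1, knockdown 2 and control 2 (RefSeq, GRCm38.p6, chr19:37434591-37434890, plus strand).

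Hhex start: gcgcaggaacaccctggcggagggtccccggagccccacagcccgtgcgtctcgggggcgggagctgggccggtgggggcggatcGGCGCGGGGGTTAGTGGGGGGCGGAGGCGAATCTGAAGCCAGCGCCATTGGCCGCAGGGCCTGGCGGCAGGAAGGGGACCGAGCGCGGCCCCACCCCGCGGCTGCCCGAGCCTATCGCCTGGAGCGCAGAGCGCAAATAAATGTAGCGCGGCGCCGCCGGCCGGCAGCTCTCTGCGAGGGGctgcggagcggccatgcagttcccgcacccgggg

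This window had 75.7% G and C and 37 CpG, the highest of the 10 member starts. None of the 5 motifs matched in the Mef2a, Hhex and second Mef2c windows, which says only that these letters are not in these 300 bases. The SOX letters AACAAT were in none of the 10 member windows and in 10.7% of all promoters.

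Peak width was examined after these 2 regions had been seen. In the 7 member regions held by all 4 libraries, both knockdown peaks were wider than both control peaks in 4 (Tal1 upstream, both Mef2c regions and Hhex), and the reverse occurred in 0. Over the 4732 window regions with 1 peak in each library, these shares were 50.6% and 2.09%, so wider knockdown peaks were common. Median widths there were 573.0 and 556.5 bp in knockdown 1 and 2 and 410.5 and 452.0 bp in control 1 and 2. The size of the difference at the second Mef2c start and at Hhex was uncommon. The mean knockdown width was 4.40 and 4.52 times the mean control width, and 0.380% of the 4732 regions reached 4 times. At Hhex the 2 control peaks did not overlap and lay 700 bp apart, so their mean width is that of 2 separate sites. Without each library in turn, the ratio was between 4.21 and 4.61 at Mef2c and between 4.45 and 4.59 at Hhex. Knockdown 1 and control 2 have like numbers of peaks but not like widths, with medians of 445 and 343 bp over the whole lists. Between these libraries the ratio was 4.12 at Mef2c and 4.49 at Hhex, and 0.824% of the 4732 regions reached 4 times. At the other 5 regions the ratio lay between 0.99 and 1.86. These widths have no test, and the limit of 4 was set with the values in view.

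**Figure D4:**
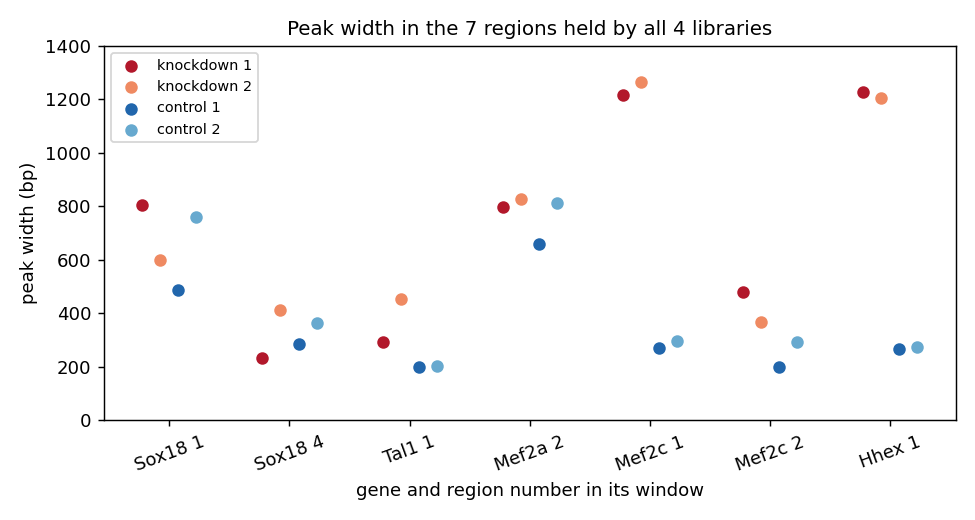
Width in bp (y axis) of the peak of each library in the 7 member regions held by all 4 libraries (x axis, gene and region number). At the second Mef2c start (Mef2c 1) and at Hhex the knockdown peaks are 1205 to 1267 bp wide and the control peaks 265 to 295 bp, while at Mef2a and Sox18 the groups overlap.

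Within their own lists, the member peaks were of middling strength in the knockdown libraries and control 2, and weaker in control 1. Their median percentile was 42.3 and 42.7 in knockdown 1 and 2 and 70.3 and 48.9 in control 1 and 2. Above the middle of the list stood 10 of 17 and 14 of 23 peaks in the knockdown libraries, and 2 of 8 and 9 of 16 in the controls. Ranks from lists of different length show no change between libraries and are given only as the place within each list.

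**Figure D5:**
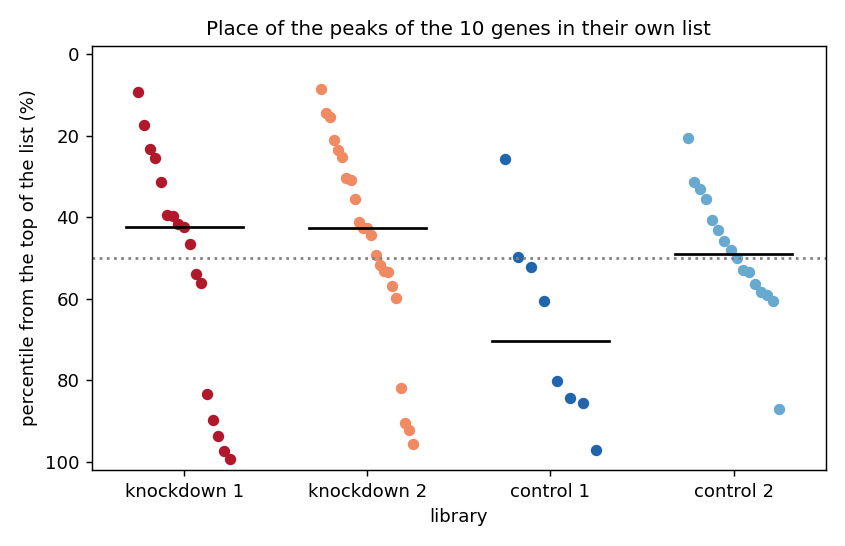
Place of each member peak in its own list, as percentile from the top (y axis, 0 is the strongest), for the 4 libraries (x axis), with the median as a black line and the middle of the list dotted. The best peak of each library stood at percentile 9.4, 8.6, 25.8 and 20.6 in knockdown 1, knockdown 2, control 1 and control 2.

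Genes linked to the 10 factors were counted in the same way. The shares of all protein-coding genes with a window peak were 54.6% and 61.7% in knockdown 1 and 2, and 35.4% and 53.9% in control 1 and 2. Of 18 partners and relatives of TAL1 and LMO2, 12 and 15 had a window peak in the knockdown libraries, and 12 and 15 in the controls. All 4 libraries held 11 of them, among them the adaptor genes Ldb1 and Ldb2, the E-protein genes Tcf3 and Tcf4 and the GATA factor gene Gata3. Tal2 and Cbfa2t3 were held by the replicate 2 libraries only, and Lmo1, Gata1 and Gata6 by none. Among 11 MEF2 relatives and regulators, 10 and 11 had a window peak in the knockdown libraries and 9 and 11 in the controls. The class IIa histone deacetylase genes Hdac4, Hdac5, Hdac7 and Hdac9, whose products repress MEF2 proteins, were among the 9 held by all 4 libraries, as were the shear-stress genes Klf2 and Klf4.

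Of 24 genes reported as targets of these factors in endothelium, 22 and 23 had a window peak in the knockdown libraries and 14 and 22 in the controls. The 14 held by all 4 libraries included Cdh5 (VE-cadherin), Cldn5, Dll4, Efnb2, Tek and Nos3, and the 8 missing from control 1 only included Notch1, Robo4, Pecam1 and Vwf. Prox1, the lymphatic regulator downstream of SOX18, had no window peak in any library. Of the 53 genes in the 3 lists together, 49 had a peak in the window and 34 had one at a gene end, counting any library. The shares of all protein-coding genes were 65.8% for the window and 48.5% for a gene end. All 4 libraries held 34 of the 49 windows, and all but control 1 held 10, where the shares over all such protein-coding genes were 48.8% and 24.7%. None of the 49 windows was knockdown-only or control-only, against 6.01% and 0.288%. Of the 34 gene ends, 1 was knockdown-only, that of the adhesion gene Esam, against 7.82%. The Esam end peaks ranked at percentile 88.1 in knockdown 1 and 59.6 in knockdown 2, and the Esam window held peaks in all 4 libraries.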

How the data were processed

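Per the labels' protocols, 2000 sorted retinal endothelial cells were used for each ATAC-seq library. Per the submitters' processing notes, MACS2 2.1.1, Bowtie2 2.3.2, Trimmomatic 0.36, bedtools 2.26.0, Picard 2.9.2 and SAMtools 1.3 were used, with mm10 as the build. Their settings, the filter on peaks and any shift of reads for the transposase are not given in the sources used here. The deposited files are 1 list of broad peaks per library, not pooled. The authors' values per peak are the fold enrichment (a ratio), the −log10 of p, the −log10 of q, and a deposited score equal to the −log10 q multiplied by 10, cut to a whole number and capped at 1000. No −log10 q is below 1, which puts the end of every list at q = 0.1. Fold and −log10 q were used only within a list.

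Gene ends came from RefSeq's gene table and starts from its promoter table (250 bases before to 50 from each start), both on GRCm38.p6 (the mm10 chromosomes). Sox7, Sox17, Sox18 and Lmo2 were not in the promoter table, and their gene ends were used. An overlap of at least 1 bp counted. Peaks were ranked by −log10 q, ties by fold. Regions were merged on the 19 autosomes and X. No gene or region was tested on its own, because 2 libraries against 2 cannot give a two-sided exact p below 0.333. The totals were tested by exact permutation (SciPy 1.17.1). Functions were tested on simulated lists. The 10 members, the related genes and the marker lists were chosen with earlier results of these data known. All 10 members are named. Of the related lists, up to 4 genes per list and direction were to be named, and the others named as examples were picked after their values were seen. Width, and bases per 1000 bases of the list, were compared after the data had been seen. The alternatives tried: a stricter −log10 q of 3, equal lists, each library left out, the lists of like length alone, presence only where peaks covered 50% of a region (or 50% of the peak lay in the window), other windows, merging within 1 kb, and peaks at other genes' ends left out.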

Additional observations from a re-analysis of the deposited data

How the results depend on the processing

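The higher total of member peaks in the knockdown libraries kept its direction under every alternative run, with differences from 0.5 peaks (equal lists, exact permutation p = 1) to 12 peaks (without control replicate 2). With a −log10 q of at least 3 it was 7.5 (12 and 19 peaks in the knockdown libraries, 1 and 15 in the controls) and with 50 kb on each side 10 (25 and 36 peaks in the knockdown libraries, 12 and 29 in the controls). In both of these last settings the groups overlapped, with an exact permutation p of 0.667. With gene bodies alone it was 5 and with peaks at other genes' ends left out 6.5. Without each library in turn it was 4 (without control 1), 5 (without knockdown 2), 11 (without knockdown 1) and 12 (without control 2). Labels swapped within a replicate number as a block gave the same 8 peaks and p = 0.5, the smallest that block allows (exact permutation). The numbers pair no libraries in the labels, and across 14242 genes the deviations of same-numbered libraries from their group means had a correlation of 0.305.

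Counts by pattern were less stable. A −log10 q of at least 3 left 1 member held by all libraries and 0 knockdown-only members, 0 and 0 gene ends, and 1 and 1 regions in those patterns. Equal lists left 0 knockdown-only members, 0 knockdown-only and 0 fully shared gene ends, and 0 knockdown-only and 1 fully shared region. Between control 2 and knockdown 1 alone, 2 gene ends and 13 regions were shared, 4 regions were in knockdown 1 only and 3 in control 2 only. Presence counted only at 50% coverage gave 4 knockdown-only and 3 fully shared regions. Gene bodies alone gave 2 knockdown-only members, 3 shared members and 13 regions, 4 of them shared. With 50 kb on each side there were 45 regions and 0 knockdown-only members. Gene ends within 3 kb gave 6 members with a peak, 0 of them knockdown-only and 2 shared. Without peaks at other genes' ends, 2 members were knockdown-only, Lmo2 and Lyl1. Leaving out 1 library gave 1 to 4 knockdown-only members, 6 to 9 fully shared members, 1 to 2 knockdown-only gene ends and 1 to 2 shared ones. It gave 2 to 8 knockdown-only, 0 to 1 control-only and 7 to 13 shared regions. The highest knockdown-only counts came without control 2, and the highest shared counts without control 1. Of 110 recomputed differences for single members, 13 moved by more than the spread between libraries and 2 changed sign, Tal1 with equal lists (-0.5) and Gata2 between the lists of like length (-1). The causes were not tested.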
